A study of Mus musculus with 6 samples.

Results

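The lymphotoxin β receptor (LTβR) response of the lymph node (LN) stromal cell lines BLS4 and BLS12 was compared gene by gene, as the difference between their antibody effects. For each gene the antibody difference of a line was the log2 intensity of the antibody-treated array minus that of the unstimulated array. The response difference was the antibody difference of BLS12 minus that of BLS4, so that a positive value means a higher antibody difference in BLS12. This contrast used 4 of the 6 arrays of the series. Of 19938 genes with an array entry of their own, 12489 were kept because at least 1 of the 4 cell line arrays lay at or above its array median. The other genes lay below the median on all 4 arrays.

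Both lines were derived from LN of adult BALB/cA mice and grown in DMEM with 10% FCS and antibiotics. The treated arrays came from cells given 1 µg/ml of a goat polyclonal agonistic antibody against mouse LTβR for 2 days, and the unstimulated arrays from cells without it. The labels name no control antibody for the unstimulated cells. Each line and condition had 1 array, and the labels left unsaid whether a line's arrays represented separate cultures. The other arrays of the series, sorted LN stroma (CD45-, CD31-, podoplanin+ and VCAM-1+; adult mice, strain C57BL/6JJcl) and mouse embryonic fibroblasts (MEF) from C57BL/6JJcl embryos of days 11.5 to 13.5, are given only as levels beside the lines. Both differed from the lines in strain, and the sorted stroma had also not been cultured. With 1 array per line and condition, no test of a response difference was possible, and every value below is a size on single arrays. An array signal also cannot tell a change in the share of cells that express a gene from a change in RNA per cell.

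LTβR is a receptor of the TNF receptor family through which lymphotoxin and LIGHT act on stromal cells. It engages the canonical NF-κB pathway and, through the kinase NIK and processing of the Nfkb2 product p100, the non-canonical RelB pathway. In LN stroma this receptor is known for inducing chemokines and adhesion molecules that organise lymphocytes. Cell division runs on a separate set of genes, many of which are repressed in resting cells through a promoter element named the CHR or through E2F sites. The CCAAT box is another element found in many of their promoters.

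The response difference was 1 log2 unit (2-fold) or more in 149 genes (1.19% of those kept) and -1 or less in 328 genes (2.63%). These shares are the background for the counts of list members given below. Centring each array on its median, which lowered every response difference by 0.11, gave 114 and 430 genes, so that the share of positive differences went from 31.2% to 21.0%. Over all genes kept, the response difference had a median of -0.07 and an SD over genes of 0.43. Differences of 4-fold or more were found in 25 genes with BLS12 above and 17 with BLS4 above. Because no detection call was used, sizes are approximate where a level lies below the array median. The differences were therefore also taken with such levels raised to the median, and 128 of the 149 and 274 of the 328 genes stayed past 2-fold. Just inside the limit lay Snord16a at 1.003 and Neurl1b at -1.001, and just outside it Rabgap1l at 0.9985 and Nr2f2 at -0.999.

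**Figure D1:**
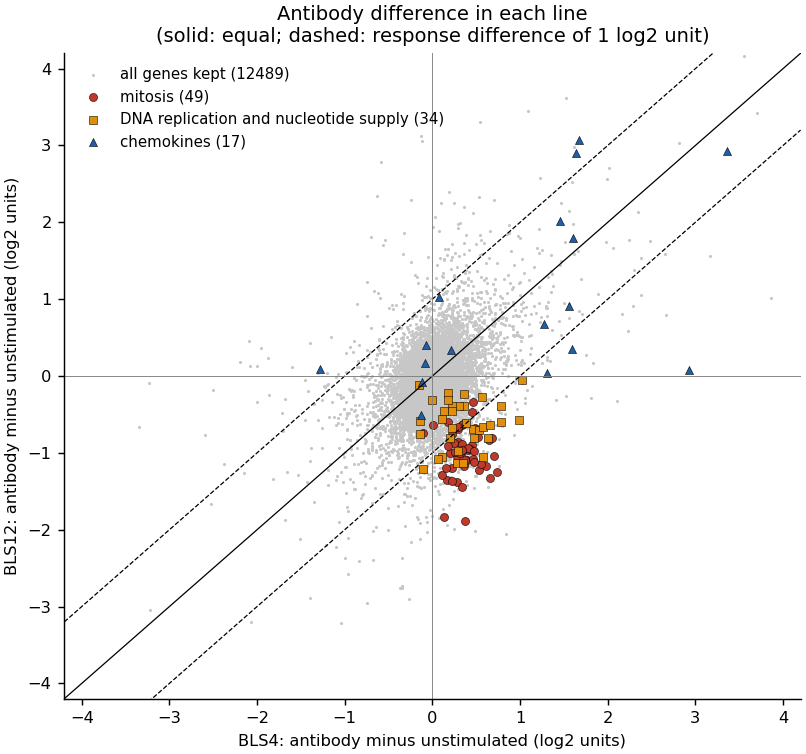
Each grey point is 1 of the 12489 genes kept, with the antibody difference of BLS4 on the horizontal axis and that of BLS12 on the vertical axis, both in log2 units. The 49 mitosis genes all lie below the line of equal response, and the 17 chemokines lie on both sides of it.

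The genes were sorted by the line in which they moved, counting a line as still where its antibody difference was under 0.5 log2 units in size and, where the other line was still, as moved at 1 or more. The most numerous class held 157 genes that were lower with antibody in BLS12, with BLS4 still, and 67 genes were higher in BLS12 with BLS4 still. In the reverse arrangement, 25 genes were lower and 21 higher in BLS4 with BLS12 still. In 45 genes the lines moved in opposite directions by 0.5 or more each with BLS4 up and BLS12 down, and in 14 genes with BLS12 up and BLS4 down. Both lines were higher with antibody in 16 genes with the larger difference in BLS12 and in 8 with the larger difference in BLS4. Both were lower in 14 genes with the larger difference in BLS12 and in 3 with the larger difference in BLS4. The remaining genes met none of these definitions, 83 with BLS4 above and 24 with BLS12 above.

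Within single lines, 294 genes (2.35%) were at least 2-fold lower and 207 (1.66%) at least 2-fold higher with antibody in BLS12. In BLS4 the numbers were 79 (0.633%) lower and 120 (0.961%) higher. The spread of the antibody difference over all genes kept was 0.446 (SD over genes) in BLS12 and 0.319 in BLS4.

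The small non-coding RNAs other than miRNAs that passed 2-fold had positive response differences. Small RNAs were taken as a class after their values were seen. Of the 52 kept, 14 had a response difference of 1 or more and 0 of -1 or less, with a median of 0.64, against -0.08 for the 12014 protein-coding genes. Their median levels were 6.70 and 6.88 in unstimulated and treated BLS4, and 6.67 and 7.63 in unstimulated and treated BLS12, so that treated BLS12 was the high array. The lowest of the 4 arrays was unstimulated BLS12 for 25 of them and unstimulated BLS4 for 21, and the median gap between the unstimulated lines was -0.0041. Of the 83 miRNAs kept, 55 were lowest in unstimulated BLS12 and 13 in unstimulated BLS4, with a median response difference of 0.29. Rny3, the Y3 RNA of Ro ribonucleoprotein particles, had log2 intensities of 12.58 and 12.45 in unstimulated and treated BLS4, 9.21 in unstimulated BLS12 and 12.27 in treated BLS12, a response difference of 3.18. The 5S ribosomal RNA entry n-R5s136 (2.53), Rny1 (2.31, and 0.68 when low values were raised to the array median), the RNase P RNA Rpph1 (1.33), its relatives Rprl1 (1.34) and Rprl2 (1.30) and the RNase MRP RNA Rmrp (1.23) had the same form. All 7 of these RNAs, put together as a group after their values were seen, were lowest in unstimulated BLS12 among the 4 cell line arrays. All 4 arrays enter every response difference, so no value can be given without one of them, and the part of small RNA levels in the results that follow was not tested. The 10 housekeeping genes kept had response differences from -0.70 (Hprt) to 0.23 (Gusb), with a median of -0.19.

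The promoters of 5 genes are shown because promoter elements were compared between the gene groups. The 300-base sequences run from 250 bases before to 50 bases after the transcription start and are those of RefSeq on GRCm38.p6, which covered 9934 of the 12489 genes. Kif4, Prc1 and Depdc1a are the mitosis genes with the largest response differences among those with a match to both the CHR and the CCAAT box, and capitals mark these matches on either strand. Kif4 lies at chrX:100625815-100626114 on the + strand, Prc1 at chr7:80294201-80294500 on the + strand and Depdc1a at chr3:159495183-159495482 on the + strand.
Kif4: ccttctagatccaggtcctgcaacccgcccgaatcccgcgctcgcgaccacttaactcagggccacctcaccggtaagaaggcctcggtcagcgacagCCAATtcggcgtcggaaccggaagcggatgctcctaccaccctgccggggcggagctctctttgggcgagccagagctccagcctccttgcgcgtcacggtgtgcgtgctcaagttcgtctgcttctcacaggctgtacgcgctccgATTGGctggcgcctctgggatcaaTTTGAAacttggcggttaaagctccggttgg
Prc1: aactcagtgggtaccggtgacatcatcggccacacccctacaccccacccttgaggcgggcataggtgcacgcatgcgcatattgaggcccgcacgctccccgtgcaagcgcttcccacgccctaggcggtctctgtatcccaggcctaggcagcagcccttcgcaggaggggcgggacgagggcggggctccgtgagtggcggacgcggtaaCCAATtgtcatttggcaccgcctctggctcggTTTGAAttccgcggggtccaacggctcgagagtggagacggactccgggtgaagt
Depdc1a: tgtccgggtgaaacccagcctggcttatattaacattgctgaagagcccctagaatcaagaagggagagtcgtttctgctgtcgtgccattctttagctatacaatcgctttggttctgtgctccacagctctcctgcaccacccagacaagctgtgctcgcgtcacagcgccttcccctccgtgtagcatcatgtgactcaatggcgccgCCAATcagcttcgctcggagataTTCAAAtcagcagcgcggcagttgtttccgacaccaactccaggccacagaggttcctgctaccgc

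Mcm6, a subunit of the replicative helicase, is the DNA replication gene with the largest response difference among those with an E2F match. Its promoter lies at chr1:128359656-128359955 on the - strand, and capitals mark E2F and CCAAT matches. Ccl9 is the chemokine with the largest response difference among those with a match to the NF-κB consensus, which is marked in capitals, at chr11:83578587-83578886 on the - strand.
Mcm6: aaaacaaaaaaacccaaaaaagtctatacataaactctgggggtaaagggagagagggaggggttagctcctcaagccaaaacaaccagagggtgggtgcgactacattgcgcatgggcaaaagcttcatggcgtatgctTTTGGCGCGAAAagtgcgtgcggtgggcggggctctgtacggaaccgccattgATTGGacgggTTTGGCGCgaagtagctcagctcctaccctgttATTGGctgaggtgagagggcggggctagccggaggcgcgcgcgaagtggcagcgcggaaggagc
Ccl9: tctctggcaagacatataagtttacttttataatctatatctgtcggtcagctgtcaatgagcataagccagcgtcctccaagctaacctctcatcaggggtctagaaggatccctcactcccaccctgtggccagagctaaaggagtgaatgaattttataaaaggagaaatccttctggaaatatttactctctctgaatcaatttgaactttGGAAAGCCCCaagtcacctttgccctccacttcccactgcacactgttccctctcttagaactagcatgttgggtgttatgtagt

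The motifs were searched on both strands as TTTGAA for the CHR, CCAAT for the CCAAT box, TTTCGCGC or TTTGGCGC for E2F, and the NF-κB consensus by its name. Motifs named AP-1, TEAD, ISRE and CArG were searched as well, and their shares are given below. In Prc1 the CHR match began 5 bases before the start and the CCAAT match 37 bases before it, and in Depdc1a they began 16 and 39 bases before it. In Kif4 the CHR match lay 19 bases after the start. A match is a description of these letters, not a site or a cause.

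Both elements were present in the promoters of 26 of the 42 mitosis genes with a sequence (61.9%), against 4.70% of all genes kept with a sequence. A CHR match, with or without a CCAAT match, was found in 76.2% of the mitosis genes and 11.4% of all genes. It was also found in 4 of the 10 chemokine promoters with a sequence, that of Ccl9 included, where it is not in capitals. In the 29 DNA replication genes with a sequence the CHR was found in 13.8% and an E2F match in 34.5%, against 1.58% of all genes for E2F. Among all genes with a response difference of -1 or less, 28.2% held a CHR match, and among those outside the mitosis and replication lists it was 45 of 209 (21.5%). Among genes with a response difference of 1 or more the share was 16.3%. The fixed lists do not hold every gene of cell division. Ncapg (-1.40), a condensin subunit whose promoter held CHR and CCAAT matches, was among those outside them. Matches to the NF-κB consensus were found in 11 of the 92 promoters of genes with a difference of 1 or more, in 5.79% of those with -1 or less and in 5.18% of all genes.

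The mitosis list had the lowest median response difference of the gene lists with 5 or more genes kept. All 49 members kept of the 50 in the list (Ccnb1 had no entry of its own) had a negative response difference, and 39 of them reached -1 or less, against the 2.63% of all genes. The median was -1.35, against -0.07 for all genes. The median antibody difference was 0.34 in BLS4 and -0.98 in BLS12. With antibody, 48 of 49 members were higher in BLS4, 0 of them 2-fold, and all 49 were lower in BLS12, 21 of them at least 2-fold (2.35% of all genes).

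Anln encodes anillin, a scaffold of the contractile ring in cytokinesis. Its log2 intensity was 7.63 in unstimulated and 8.0 in treated BLS4, and 10.14 in unstimulated and 8.26 in treated BLS12, a response difference of -2.26. The unstimulated BLS12 array was the high one, and treated BLS12 lay close to both BLS4 arrays. Kif4, a chromokinesin whose promoter is printed above, read 5.52 and 6.26 in unstimulated and treated BLS4, and 7.29 and 6.04 in unstimulated and treated BLS12 (response difference -1.99). With antibody its level was lower in BLS12 than in BLS4, the reverse of the unstimulated order. Prc1, which bundles the microtubules of the spindle midzone, read 6.55, 7.20, 8.83 and 7.51 in the same order of arrays (-1.98).

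Kif11, the motor that pushes the spindle poles apart, read 5.96 and 6.66 in unstimulated and treated BLS4, and 9.05 and 8.01 in unstimulated and treated BLS12 (-1.75). Mki67, the source of the Ki-67 proliferation antigen, read 6.53 and 7.18 in BLS4, and 8.77 and 7.93 in BLS12 (-1.48). Cdk1, the kinase that drives entry into mitosis, read 8.45 and 8.74 in BLS4, and 10.73 and 9.86 in BLS12 (-1.15). In these 3 genes treated BLS12 stayed above treated BLS4, so the lines came closer without changing order. Top2a, the topoisomerase that separates sister chromatids, had -1.70 for its brightest entry and -0.61 when its entries were averaged. The smallest response difference of the list was that of Ndc80, a kinetochore component (-0.63), the 1 member that was lower with antibody in BLS4 as well (-0.11).

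The line gap in mitosis genes, which shares its arrays with the response difference, was wide without antibody and narrow with it. The median level of BLS12 over BLS4 was 1.77 log2 units without antibody and 0.36 with it, and all 49 genes had a smaller gap with antibody. The median log2 intensities of the list were 6.53 and 6.79 in unstimulated and treated BLS4, 8.21 and 7.21 in unstimulated and treated BLS12, 5.50 in fresh LN stroma and 8.02 in MEF. Unstimulated BLS12 thus lay nearest to MEF, and fresh stroma lay below all 4 cell line arrays.

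**Figure D2:**
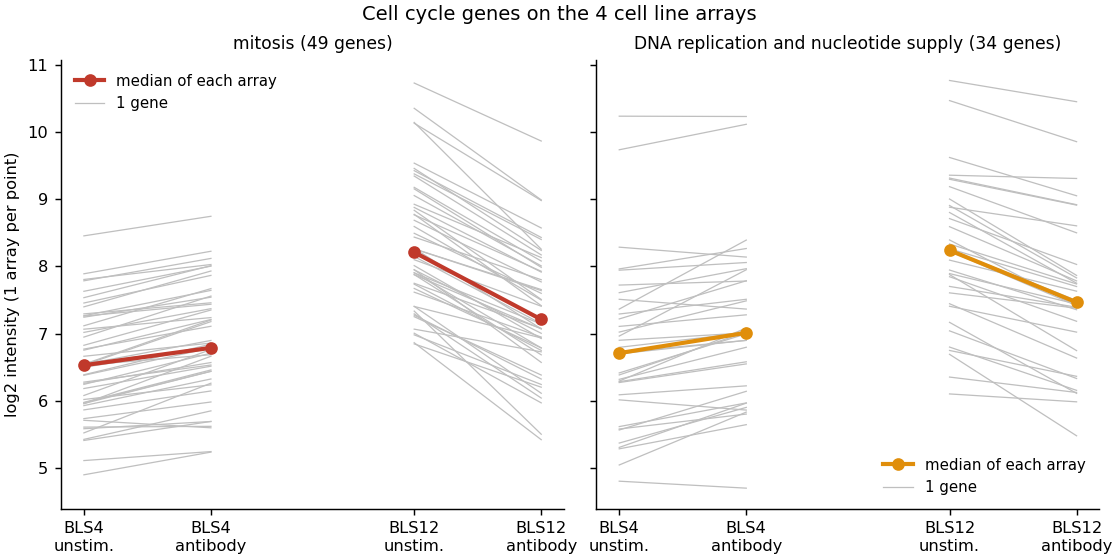
Log2 intensity of each gene of the mitosis list (49 genes, left) and the DNA replication list (34 genes, right) on the 4 cell line arrays, with grey lines joining the arrays of a line for 1 gene and the thick line joining the medians. The medians go up slightly in BLS4 (6.53 to 6.79 for mitosis) and down in BLS12 (8.21 to 7.21).

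Genes of DNA replication and nucleotide supply had the same direction with smaller sizes. Of 37 fixed genes, 35 had an entry and 34 were kept, and 18 of these had a response difference of -1 or less (2.63% over all genes) and 0 of 1 or more (1.19%). The median response difference was -1.04, from antibody differences of 0.30 in BLS4 and -0.60 in BLS12, and the median line gap was 1.46 without and 0.59 with antibody. E2f8, an E2F-family repressor, read 5.57 and 6.14 in BLS4, and 7.17 and 6.11 in BLS12 (-1.63). Mcm6, whose promoter with E2F matches is printed above, read 6.96 and 7.95 in BLS4, and 9.62 and 9.05 in BLS12 (-1.56). Mcm7, another helicase subunit, differed in another way: it was higher with antibody in BLS4 (1.03) and still in BLS12 (-0.05). The 1 member with a positive value was E2f2 (0.03), and Brca1, Clspn, Pole and Ccne2 were under 2-fold when low values were raised to the array median.

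Other genes around the cell cycle were read from separate lists or by size. Of 21 cell cycle brakes and p53 targets kept, 1 passed 2-fold, Gadd45a, a stress-induced growth arrest gene, which read 9.77 and 9.44 in BLS4, and 8.46 and 9.41 in BLS12 (1.28). The median of this list was 0.08. Cdk6, a kinase of the transition into S phase, read 6.21 and 8.50 in BLS4, and 8.92 and 9.83 in BLS12 (-1.38). It was higher with antibody in both lines, more so in BLS4, and the unstimulated BLS4 array was the low one.

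The genes kept of the NF-κB list had response differences under 2-fold. Of 24 genes with an entry, 22 were kept, and 0 of these had a response difference of 2-fold in either direction. Tnip3, below the array median on all 4 arrays and so left out, had 1.39. Tifa, an NF-κB adaptor outside this list, is given further below. The medians were 0.79 in BLS4 and 0.73 in BLS12 for the antibody difference and -0.03 for the response difference. Ltbr, the receptor itself, read 8.78 and 8.67 in BLS4, and 8.74 and 8.55 in BLS12, so its level was close in all 4 arrays. Nfkbie, which encodes an inhibitor that NF-κB induces, was higher with antibody by 2.82 in BLS4 and 3.04 in BLS12.

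The extremes of the NF-κB list were Nfkb2 and Birc2. Nfkb2, the precursor of the non-canonical p52 subunit, read 8.03 and 10.42 in BLS4, and 9.27 and 10.81 in BLS12 (-0.85). Its treated levels were close and its unstimulated level was lower in BLS4. Birc2, a ubiquitin ligase that restrains NIK, read 7.17 and 8.76 in BLS4, and 7.80 and 10.32 in BLS12 (0.93). Relb, the partner of p52, was higher with antibody by 0.86 in BLS4 and 1.32 in BLS12 (0.46).

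Chemokines were split between the lines. Of 31 with an entry, 17 were kept, 3 had a response difference of 1 or more (1.19% of all genes) and 3 of -1 or less (2.63% of all genes), and the median was 0.13. Ccl11, the eosinophil attractant eotaxin, read 8.01 and 10.94 in unstimulated and treated BLS4, a 7.62-fold difference, and 5.41 and 5.49 in unstimulated and treated BLS12, which were both below the array median. Its response difference was -2.85, and fresh LN stroma read 11.70 and MEF 5.54. Ccl8, a ligand that attracts monocytes and other leukocytes, read 10.13 and 11.73 in BLS4, and 6.02 and 6.38 in BLS12 (-1.24). Cxcl5, a neutrophil attractant, read 8.49 and 9.79 in BLS4, and 6.27 and 6.30 in BLS12 (-1.27). In these 3 chemokines BLS4 was above BLS12 before the antibody and further above it afterwards.

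Ccl2 and Ccl9 also started higher in BLS4 but had the larger antibody difference in BLS12. Ccl2, the main monocyte attractant, read 10.20 and 11.87 in BLS4 (3.19-fold), and 7.40 and 10.48 in BLS12 (8.43-fold), a response difference of 1.40. Ccl9, whose promoter with an NF-κB match is printed above, read 8.48 and 10.11 in BLS4, and 5.77 and 8.67 in BLS12 (1.27). Both were higher with antibody in each line, and the treated BLS12 level came near the unstimulated BLS4 level. Ccl6 passed for another reason: it was lower with antibody in BLS4 (6.65 to 5.37) and low in both BLS12 arrays (5.04 and 5.14). Ccl6 and Ccl9 are related chemokines, and the probes' ability to tell them apart was not tested.

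The other 11 chemokines kept had response differences under 2-fold. Cxcl16, a membrane-bound chemokine, was higher with antibody by 3.35 in BLS4 and 2.93 in BLS12. Cxcl10, an interferon-inducible attractant of T cells, was higher by 1.61 and 1.80. Among the homeostatic chemokines, Cxcl12 read 11.46 and 11.34 in BLS4, and 9.26 and 9.19 in BLS12, against 12.40 in fresh stroma, while Ccl19 and Cxcl13 were lower in the lines. Ccl19 read 6.04 and 6.25 in BLS4, and 6.04 and 6.39 in BLS12, against 12.49 in fresh stroma. Cxcl13, the attractant of B cells, read 4.69 and 4.77 in BLS4, and 5.11 and 6.14 in BLS12, against 12.82 in fresh stroma. It was kept only through the treated BLS12 array, and its response difference of 0.94 became 0.43 when low values were raised to the array median. Ccl5, an attractant of T cells, was higher with antibody by 1.55 in BLS4 and 0.91 in BLS12 (-0.64), and the neutrophil attractant Cxcl1 by 1.28 and 0.67 (-0.60).

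**Figure D3:**
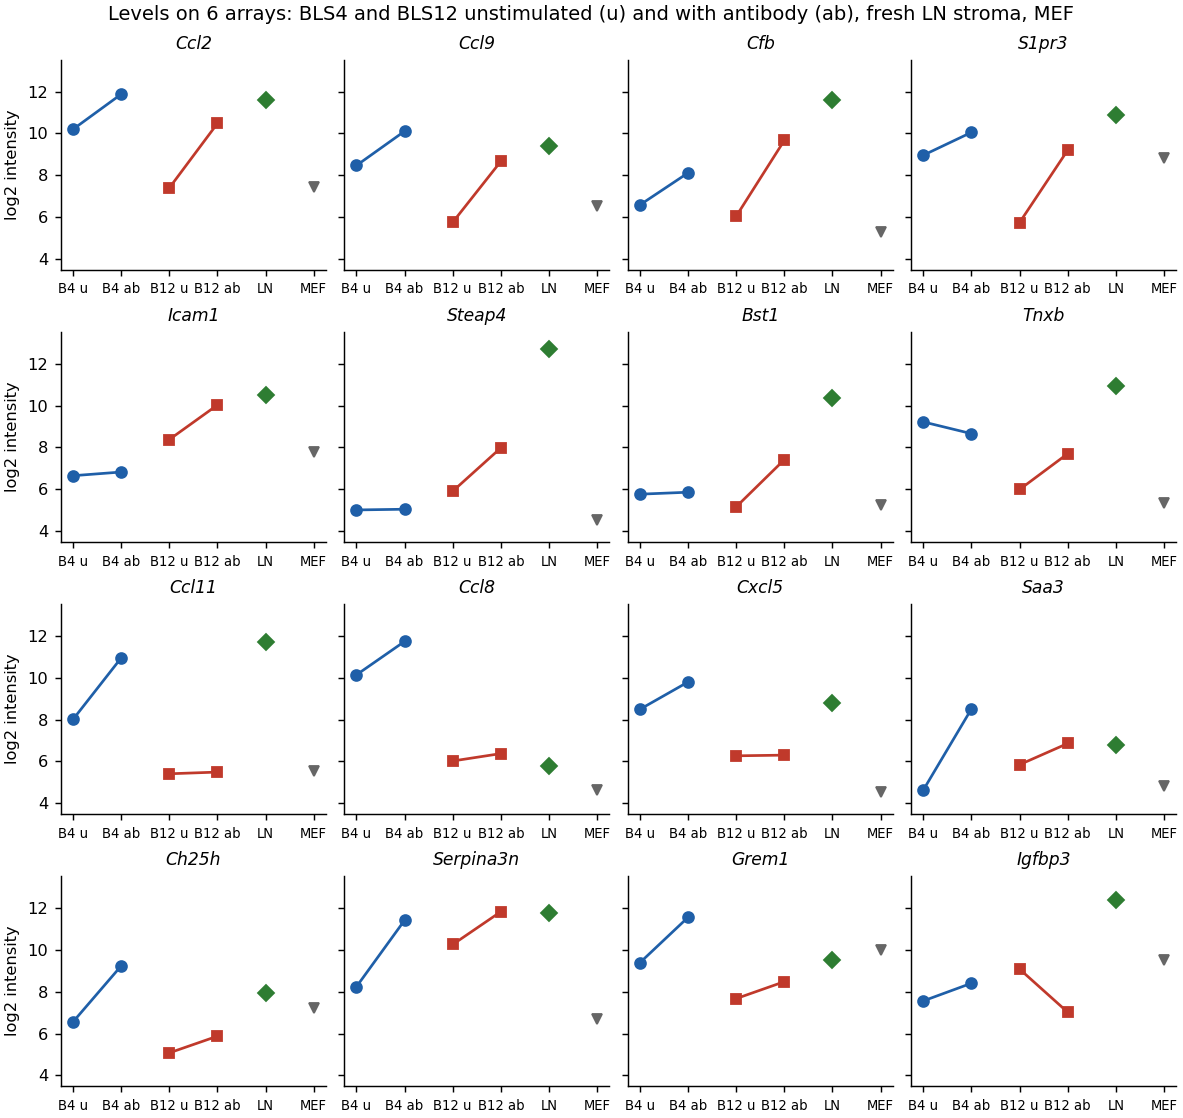
Log2 intensity of 16 genes on 6 arrays, with the BLS4 arrays in blue, the BLS12 arrays in red, fresh LN stroma as a green diamond and MEF as a grey triangle, 1 array per point. Ccl11, Ccl8 and Cxcl5 are nearly level in BLS12, while Icam1, Steap4 and Bst1 are nearly level in BLS4.

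Inflammatory effectors lay on both sides as well. Of 13 acute phase and inflammatory genes, 5 were kept. Of these, 1 was at 1 or more (Steap4, 1.19% over all genes) and 2 at -1 or less (Saa3 and Ptx3, 2.63%). Saa3, an acute phase apolipoprotein, read 4.64 and 8.51 in BLS4 (14.6-fold), and 5.85 and 6.86 in BLS12 (2.02-fold), a response difference of -2.86 that became -1.76 when low values were raised to the array median. Serpina3n, a secreted protease inhibitor outside this list, read 8.23 and 11.40 in BLS4, and 10.24 and 11.81 in BLS12 (-1.60). The treated levels of Serpina3n were close, and the unstimulated BLS4 array was the low one. Cfb, factor B of the alternative complement pathway, read 6.59 and 8.12 in BLS4 (2.88-fold), and 6.05 and 9.67 in BLS12 (12.3-fold), a response difference of 2.09. Steap4, a metalloreductase, read 5.02 and 5.06 in BLS4, and 5.92 and 7.98 in BLS12 (2.03), against 12.67 in fresh stroma. Of the 12 complement genes kept, 1 was past 2-fold in each direction, Cfb and Cd59a, a membrane inhibitor of complement (-1.01). Cd59a was at -0.51 with low values raised to the array median and at -0.99 with quantile normalization. Ptx3, a secreted pattern recognition protein, read 10.95 and 10.44 in BLS4, and 8.07 and 6.35 in BLS12 (-1.21).

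Surface molecules with a larger difference in BLS12 included an adhesion molecule and a lipid receptor. Of 19 adhesion and surface genes kept, 3 were at 1 or more (1.19% over all genes) and 1 at -1 or less (2.63%). For the 13 genes kept of the lysophospholipid and sphingolipid axis the corresponding counts were 1 and 0. Icam1, a ligand of leukocyte integrins, read 6.65 and 6.83 in BLS4, and 8.38 and 10.03 in BLS12 (1.47). Bst1, an ectoenzyme of LN stroma and marrow stroma, read 5.77 and 5.87 in BLS4, and 5.17 and 7.42 in BLS12 (2.15), against 10.37 in fresh stroma. S1pr3, a receptor for sphingosine 1-phosphate, read 8.96 and 10.05 in BLS4 (2.13-fold), and 5.76 and 9.21 in BLS12 (10.9-fold), a response difference of 2.36. For S1pr3 the unstimulated BLS12 array was the low one among the 4. Cd34 was the 1 adhesion gene in the other direction (-1.56), at 9.58 and 9.96 in BLS4, and 10.62 and 9.44 in BLS12. Vcam1, an integrin ligand and a marker by which the fresh stroma had been sorted, was higher with antibody by 0.75 in BLS4 and 0.33 in BLS12.

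Markers of lymphoid stroma subsets were split in the same way. Of 17 with an entry, 12 were kept, with a median of 0.38. Of these, 3 were at 1 or more (1.19% over all genes) and 2 at -1 or less (2.63%). Clu, the chaperone clusterin, read 6.70 and 6.72 in BLS4, and 10.07 and 11.23 in BLS12 (1.15). Mfge8, a bridge for the uptake of dying cells that marks follicular dendritic cells, read 10.33 and 10.71 in BLS4, and 9.19 and 10.63 in BLS12 (1.06, and 0.95 with each array centred). Ch25h, which makes an oxysterol that guides lymphocytes after further conversion, read 6.56 and 9.22 in BLS4, and 5.08 and 5.87 in BLS12 (-1.87). Cyp7b1, an oxysterol hydroxylase singled out after its values were seen, read 6.28 and 7.36 in BLS4, and 4.58 and 4.40 in BLS12 (-1.26, and -0.95 with low values raised to the array median). Grem1, a secreted BMP antagonist, read 9.38 and 11.54 in BLS4, and 7.66 and 8.47 in BLS12 (-1.36). The higher levels of Ch25h, Cyp7b1 and Grem1 were thus those of treated BLS4.

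Igfbp3, a binding protein for insulin-like growth factors, read 7.55 and 8.40 in BLS4, and 9.07 and 7.02 in BLS12 (-2.90), against 12.36 in fresh stroma. The lines moved in opposite directions and exchanged their order. Igf1, one of the factors it binds, read 8.48 and 7.52 in BLS4, and 10.34 and 7.75 in BLS12 (-1.62). Igfbp3 is outside the cytokine and growth factor list and Igf1 is in it. Of the 23 cytokines and growth factors kept, 2 were at 1 or more (1.19% over all genes) and 3 at -1 or less (2.63%). The median of that list was 0.02. Il1rn, the interleukin 1 receptor antagonist, was lower with antibody in BLS4 (7.78 to 5.91) and low in BLS12 (4.97 and 5.20). Hgf, hepatocyte growth factor, read 10.89 and 10.40 in BLS4, and 7.76 and 8.65 in BLS12 (1.39). Lif, a cytokine of the interleukin 6 family, read 5.46 and 6.43 in BLS4, and 7.44 and 7.00 in BLS12 (-1.40).

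Genes of Notch, Wnt and TGF-β signalling had 32 members kept, with a median of -0.02. Of these, 2 were at 1 or more (1.19% over all genes) and 4 at -1 or less (2.63%). Lgr5, the R-spondin receptor, read 10.18 and 7.98 in BLS4, and 4.54 and 4.72 in BLS12 (2.38). It was below the array median in both BLS12 arrays, and the response difference lay mostly in BLS4. Jag1, a Notch ligand, read 7.54 and 6.87 in BLS4, and 7.18 and 8.28 in BLS12 (1.76), with opposite directions in the lines. Id2, an inhibitor of basic helix-loop-helix factors, read 7.34 and 7.27 in BLS4, and 7.80 and 6.54 in BLS12 (-1.19). Also at -1 or less in the list were Grem1, given above, Sfrp4 and Rspo2, a secreted Wnt agonist (-1.08, and -0.70 with low values raised to the array median). Id4, a relative of Id2 outside this list, read 7.92 and 6.87 in BLS4, and 9.99 and 6.78 in BLS12 (-2.16), lower with antibody in both lines. Sfrp4, a secreted Wnt modulator, had -1.70, which became -0.45 when low values were raised to the array median.

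The members of the matrix list that passed 2-fold had negative response differences. Of 39 collagens and other matrix proteins kept, 6 were at -1 or less (2.63% over all genes) and 0 at 1 or more (1.19%), with a median of -0.07 equal to that of all genes to 2 decimals. Lox, the enzyme that cross-links collagen and elastin, read 12.56 and 11.16 in BLS4, and 11.34 and 8.45 in BLS12 (-1.49). Thbs2, a matricellular thrombospondin, read 12.30 and 11.98 in BLS4, and 8.69 and 7.15 in BLS12 (-1.21). Fbln5, an elastic fibre protein (-1.13), Fmod, a small proteoglycan (-1.32), and the collagen-modifying enzymes P4ha2 (-1.14) and Plod2 (-1.09, and -0.94 with quantile normalization) were the others. The collagens Col1a1 (-0.05), Col1a2 (-0.14) and Col3a1 (-0.19) had response differences near 0.

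Among 24 matrix proteases and inhibitors kept, 3 were at 1 or more (1.19% over all genes) and 0 at -1 or less (2.63%). Timp3, an inhibitor of metalloproteinases, read 11.15 and 8.56 in BLS4, and 13.25 and 12.48 in BLS12 (1.82). It was lower with antibody in both lines, and the treated BLS4 array was the low one. Mmp11, a stromal metalloproteinase, read 10.68 and 9.93 in BLS4, and 7.92 and 8.70 in BLS12 (1.53). The third was Adamts10, a secreted metalloproteinase (1.03, and 0.92 with each array centred). Outside both lists, Tnxb, the matrix protein tenascin X, read 9.22 and 8.66 in BLS4, and 6.00 and 7.70 in BLS12 (2.27).

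Cholesterol synthesis genes had a lower median with antibody in both lines, with the larger difference in BLS12. The median antibody difference of the 20 genes kept was -0.47 in BLS4 and -0.91 in BLS12, and 9 genes in BLS12 (2.35% over all genes) and 0 in BLS4 (0.633%) were at least 2-fold lower. No response difference reached 2-fold, and the median was -0.37. The largest was that of Fdps, a synthase of isoprenoid precursors (-0.64). Contractile genes, interferon-stimulated genes, the immunoproteasome, prostaglandin genes, adipogenic genes and immediate early genes also had 0 members past 2-fold in either direction. The glycolysis list had Adm, the vasodilator peptide adrenomedullin (1.59), and Pfkp, a phosphofructokinase (-1.37), on opposite sides, among 22 kept. Its median was -0.37, with 16 negative and 6 positive response differences. The amino acid and unfolded protein response list had Slc7a5, a transporter of large neutral amino acids (-1.06, and -0.93 with quantile normalization), among 18 kept. The median of that list was -0.41, with 17 negative and 1 positive.

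**Figure D4:**
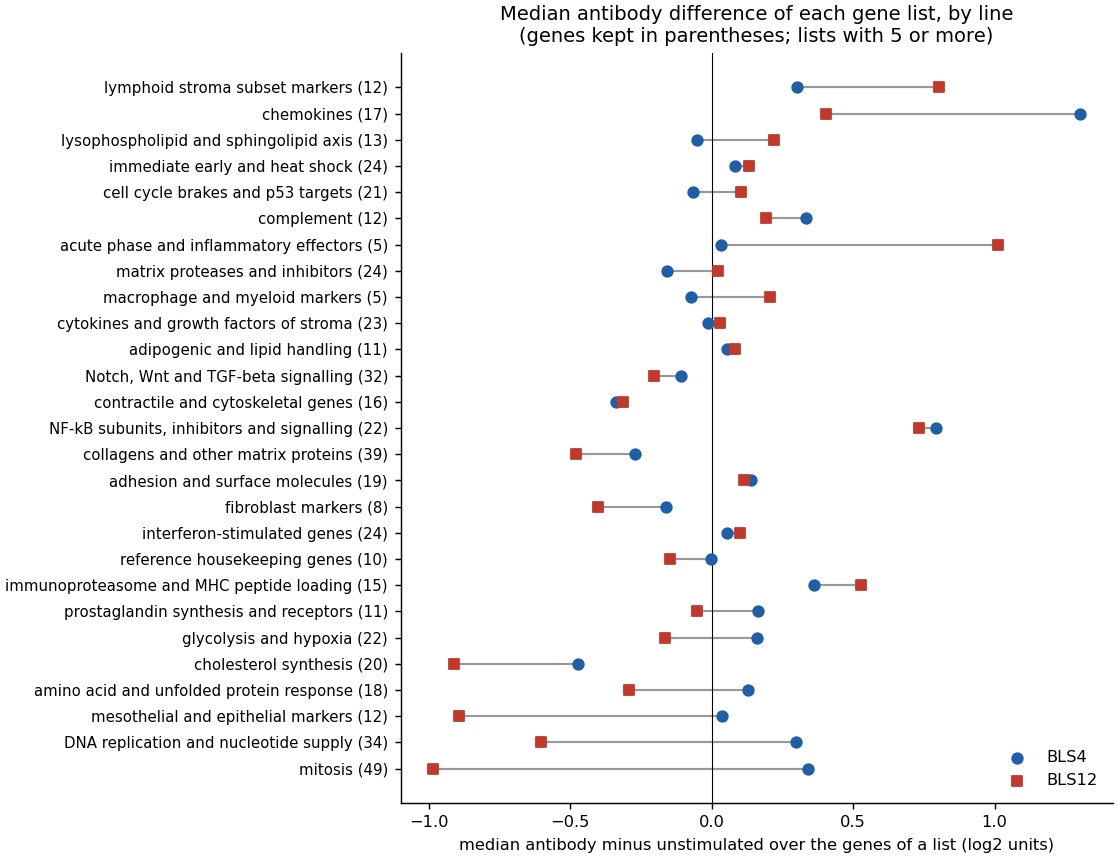
Median antibody difference of each gene list in BLS4 (blue circles) and BLS12 (red squares), in log2 units, for lists with 5 or more genes kept, ordered by the median response difference of the list. Mitosis (0.34 and -0.98) and DNA replication (0.30 and -0.60) lie on opposite sides of 0, while the NF-κB list (0.79 and 0.73) nearly coincides.

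Most of the mesothelial and epithelial markers kept were higher in BLS12 than in BLS4 before the antibody. Of 14 markers, 12 were kept, and 4 had a response difference of -1 or less (2.63% over all genes) and 0 of 1 or more (1.19%). The median was -0.83 (-0.48 without the intensity filter), from antibody differences of 0.04 in BLS4 and -0.89 in BLS12. The summed intensity of all 14 was 787 and 774 in unstimulated and treated BLS4, and 9110 and 3780 in unstimulated and treated BLS12. Gpm6a, a neuronal and mesothelial membrane glycoprotein, read 4.47 and 4.71 in BLS4, and 11.77 and 9.79 in BLS12 (-2.23). Upk3b, a uroplakin of mesothelium, read 6.47 and 6.18 in BLS4, and 10.17 and 8.61 in BLS12 (-1.27). Bnc1, a zinc finger protein of mesothelium and basal epithelium, read 5.89 and 6.19 in BLS4, and 11.10 and 10.20 in BLS12 (-1.19). Msln, mesothelin, read 8.44 and 7.55 in unstimulated and treated BLS12. Wt1 had the highest response difference of the list (0.26), at 6.33 and 6.41 in BLS4, and 6.76 and 7.1 in BLS12. Its levels were thus close in the lines, and it was higher with antibody in BLS12. Epcam and Muc16 lay below the array median on all 4 arrays, and Cdh1 (-0.22), Krt8 (-0.03) and Krt18 (0.05) had small response differences. The part of these markers in the other results of BLS12 was not tested.

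Most markers of other cell types lay below the array median. Of 15 macrophage and myeloid markers, 5 were kept, and Ptprc, Csf1r, Adgre1, Itgam, Tyrobp and Fcer1g lay below the array median on all 4 cell line arrays. Their summed intensity over all 15 was 1836 and 1375 in unstimulated and treated BLS4, and 957 and 2105 in unstimulated and treated BLS12. Lyz2, which encodes lysozyme, read 8.54 and 7.84 in BLS4, and 7.82 and 9.63 in BLS12 (2.51), and its close paralog Lyz1 had 1.39, so the 2 values may not be separate. Cd14, a coreceptor for lipopolysaccharide, read 6.50 and 7.09 in BLS4, and 8.0 and 9.73 in BLS12 (1.14). Lyz2 and Cd14 were the 2 markers at 1 or more (1.19% over all genes), and 0 were at -1 or less (2.63%). Of the 5 kept, 3 had a positive and 2 a negative response difference. Cd68, 1 of the negative ones, read 6.75 and 7.765 in BLS4, and 6.05 and 6.26 in BLS12 (-0.81). Of 9 lymphocyte markers with an entry 1 was kept, and of 9 endothelial markers 3. Of 9 fibroblast markers 8 were kept, and the 1 past 2-fold was Pdgfrb, a receptor for platelet-derived growth factor (1.07, and 0.96 with each array centred).

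Some of the genes with large positive response differences were higher with antibody in BLS12, and others lower in BLS4. Clca3a2 and Clca3a1, members of a family of secreted chloride channel regulators, had 3.37 and 2.97. Clca3a2 read 6.19 and 5.61 in BLS4, and 6.73 and 9.51 in BLS12, and since the copies of this family are alike the 2 values may not be separate. Pglyrp3, a peptidoglycan recognition protein, read 4.01 and 3.87 in BLS4, and 3.85 and 6.97 in BLS12, so the 3 other arrays were below the median and the difference of 3.26 became 1.26 when they were raised to it. Stap2, a signalling adaptor, read 5.98 and 6.52 in BLS4, and 5.91 and 9.22 in BLS12 (2.77). In these genes treated BLS12 was the high array. Tifa, an adaptor that activates NF-κB through TRAF6, read 8.83 and 9.03 in BLS4, and 5.47 and 7.87 in BLS12 (2.20), and Chil1, a chitinase-like protein, read 5.24 and 4.92 in BLS4, and 6.58 and 8.45 in BLS12 (2.19).

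In other genes with large positive values the difference lay mostly in BLS4. Egfl6, a secreted matrix protein with EGF repeats, read 9.67 and 6.44 in BLS4, and 4.42 and 4.33 in BLS12 (3.14). Aspn, the small proteoglycan asporin, read 7.13 and 3.78 in BLS4, and 4.73 and 4.07 in BLS12, so that 3 of the 4 arrays were below the median and the difference of 2.69 became 1.50 when they were raised to it. Cthrc1, a secreted collagen triple helix repeat protein, read 8.45 and 6.49 in BLS4, and 5.91 and 6.28 in BLS12 (2.32). Dio3, the deiodinase that inactivates thyroid hormone, read 9.96 and 7.88 in BLS4, and 5.03 and 5.16 in BLS12 (2.22). Prl2c5, of the proliferin family with near-identical copies, had 2.32 and is uncertain for that reason. In all of these unstimulated BLS4 was the high array. For Egfl6, Aspn, Dio3 and Prl2c5 both BLS12 arrays were below the array median, so a drop in BLS12 could have gone unseen.

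The largest negative response differences outside the groups above were mostly drops in BLS12. Vnn1, the pantetheinase vanin 1, read 4.98 and 4.71 in BLS4, and 9.73 and 6.84 in BLS12 (-2.63). Sema3c, a secreted semaphorin, read 8.40 and 8.05 in BLS4, and 9.98 and 7.22 in BLS12 (-2.41). Its relatives Sema3a (-1.17), Sema3d (-1.63) and Sema3e (-1.28), singled out after their values were seen, were each highest in unstimulated BLS12 among the 4 arrays. Ptprz1, a receptor tyrosine phosphatase, read 3.75 and 3.40 in BLS4, and 7.35 and 4.62 in BLS12 (-2.38, and -1.56 with low values raised to the array median). F3, tissue factor, the trigger of coagulation, read 10.90 and 10.15 in BLS4, and 9.76 and 6.81 in BLS12 (-2.20), lower with antibody in each line.

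Other negative genes were higher with antibody in BLS4 and still in BLS12. Npy1r, a receptor for neuropeptide Y, read 6.59 and 8.70 in BLS4, and 11.29 and 10.97 in BLS12 (-2.44). Map2k6, a kinase upstream of stress-activated MAP kinases, read 5.81 and 7.62 in BLS4, and 6.37 and 6.08 in BLS12 (-2.10). Robo1, a receptor for Slit guidance proteins, read 6.57 and 8.10 in BLS4, and 5.75 and 5.50 in BLS12 (-1.78). In Map2k6 and Robo1 treated BLS4 was the high array, and in Npy1r both BLS12 arrays were.

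**Figure D5:**
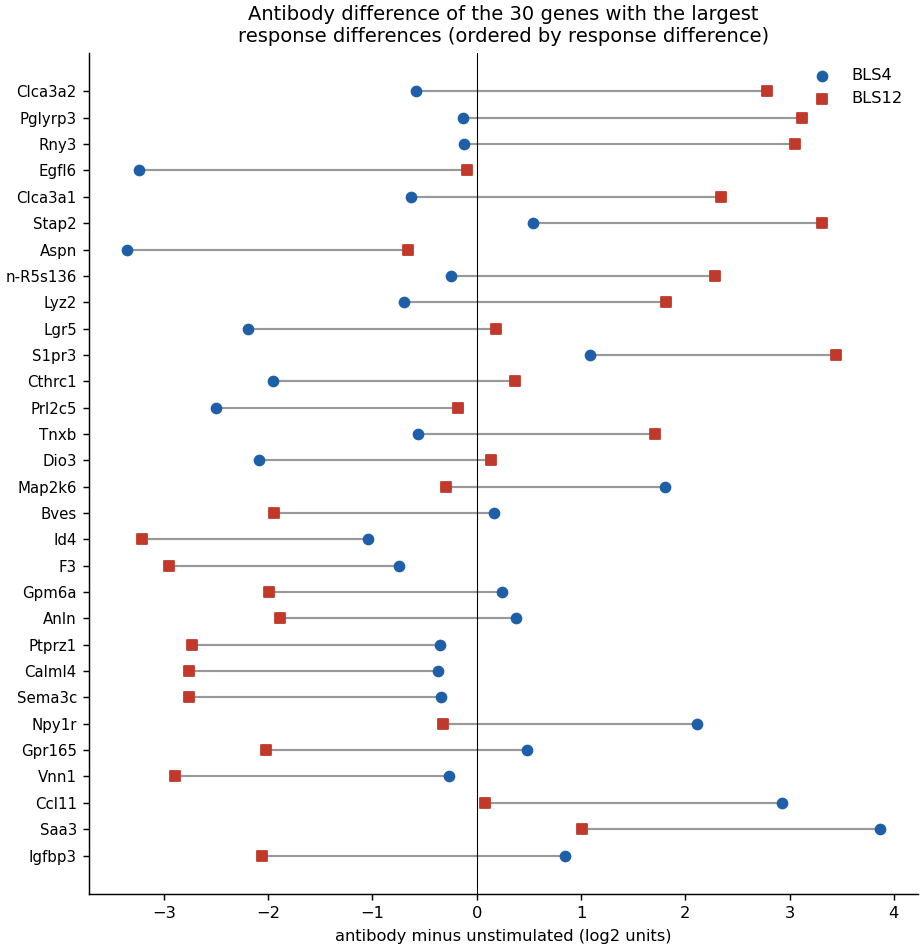
Antibody difference in BLS4 (blue circles) and BLS12 (red squares), in log2 units, of the 15 genes with the highest and the 15 with the lowest response difference that also passed 2-fold with low values raised to the array median. Egfl6, Aspn and Lgr5 differ mostly through BLS4 (Egfl6 -3.23 and -0.10), with both BLS12 arrays below the array median. Pglyrp3, Rny3 and Vnn1 differ through BLS12.

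Where a gene had a further array entry that was kept, the response differences of its entries were compared. Of the array's entries, 701 were identical to another on all 4 cell line arrays, and the comparison did not set such entries apart. Pgk1, for example, had -0.63 in both of its entries. The likeness of such pairs is given beforehand, so the counts and the median gap may overstate how alike separate entries are. Of the 694 genes with such an entry, 14 had a response difference of 2-fold or more, and the further entry had the same sign in 12 of them and was also past 2-fold in 11. Over all 694 genes the median gap between entries was 0.11 log2 units, and it reached 0.86 or more in a small share. Depdc1a had -1.96 and -1.83 in its entries. In the genes with a response difference of -1 or less, the lines were closer in level with antibody than without it in 272 of 328, and in those with 1 or more in 84 of 149. The share over all genes kept was 59.0%, and since the gaps use the same 4 arrays as the response difference these counts describe it and add no support.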

How the data were processed

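The 6 arrays were single-colour whole-transcript Affymetrix arrays. Per the submitters' processing notes, the authors obtained the deposited linear intensity of each array entry with Affymetrix Expression Console 1.1. Its algorithm setting, and any genome build, are not given in the sources used here. Intensities were taken to log2 without further normalization, with Python 3.11.15, pandas 2.3.3 and numpy 2.4.6. Of 35557 entries, 21789 named 1 gene, 1621 several and 12147 none. Entries with several genes or none were left out, and of several entries of a gene the brightest was used. Array medians lay between 51.5 and 56.3. Precision is limited by having 1 array per line and condition. The contrast was checked on simulated data. No test was made.

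Named genes were the 15 highest and 15 lowest response differences that passed 2-fold with low values raised to the array median, list members past 2-fold, the 5 largest of each response class, the extremes of each list described, and Ltbr, Nfkb2, Relb, Vcam1, Ccl19, Mki67 and housekeeping genes. Genes said to be singled out after their values were seen fall outside this rule, as do some list members given as context. The contrast, its genes and the lists were chosen with earlier results of these data known. The alternatives were other filters, a floor, centring, quantile normalization and averaged entries.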

Additional observations from a re-analysis of the deposited data

Results flagged for a closer look

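Several results were singled out because the lines moved in opposite directions with the antibody. With 1 array per line and condition, the difference between the lines was not tested in any of them. BLS12 was up and BLS4 down by at least 0.5 log2 units in 14 genes, and BLS4 up and BLS12 down in 45. The median response difference was -1.35 for the mitosis list and -1.04 for the DNA replication list. Among genes up in BLS12 and down in BLS4, the response difference was 3.37 for Clca3a2, 2.97 for Clca3a1, 2.51 for Lyz2, 2.27 for Tnxb and 1.97 for Gem, a small GTPase of the Ras superfamily (1.24 with low values raised to the array median). Among genes up in BLS4 and down in BLS12, it was -2.90 for Igfbp3, -2.08 for the adhesion receptor Adgrd1, -1.99 for Kif4, -1.98 for Prc1 and -1.93 for the matricellular protein Ccn3.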

How the results depend on the processing

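The counts of 149 genes with BLS12 above and 328 with BLS4 above ranged from 114 to 166 and from 283 to 430 over the 6 alternatives, all within 1.5 times. A list median was counted as shifted where it differed by more than 0.1 and also changed sign or differed by more than 1.5 times. Centring shifted 20 list medians and left 9, quantile normalization shifted 8 and left 21, and dropping the filter shifted 4 and left 25. List medians near 0 are thus uncertain in sign. With each array centred on its median, the median response difference was -0.14 for the NF-κB list (-0.03 in the text) and 0.0195 for chemokines (0.13). With quantile normalization the NF-κB median was 0.091. Without the intensity filter the mesothelial median was -0.48 (-0.83). The mitosis median stayed between -1.46 and -1.31, and the replication median between -1.15 and -0.89. The cause of these shifts was not tested, other than that centring takes 0.11 from every response difference. Of the genes past 2-fold in either direction that the naming rule covers, also 149 in number, 0 changed sign under the alternatives that gave them a value (139 genes under the stricter filter, all 149 under the others), and 7 were under 2-fold with low values raised to the array median, 8 with quantile normalization, 3 with centring and 1 with averaged entries. No paired analysis was possible because each line and condition had 1 array, and leaving out any array leaves no response difference. Low signal limits genes below the array median.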
